A study of Mus musculus with 6 samples.

Results

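This report describes 8 genes that encode the channels of rhythmic and leak currents in neurons: *Hcn2*, *Hcn3*, *Hcn4*, *Nalcn*, *Trpm4*, *Trpc1*, *Trpc4* and *Trpc5*. They were found by gene name among 34632 assembled loci, of which 23985 carried a gene name, and each of the 8 names lay on a single locus. RNA was sequenced from whole brainstems of mice at postnatal day 21, in 6 libraries that each held a pool of 3 brainstems. The 3 libraries labelled *Hoxa5* control came from Hoxa5flox/flox;CMV-CreERT2-/- animals and the 3 labelled *Hoxa5* cKO from Hoxa5flox/flox;CMV-CreERT2+/- littermates. Animals of both genotypes were homozygous for the floxed *Hoxa5* allele and received tamoxifen on postnatal days 1 to 4, so that the design sets carriers of the Cre transgene against littermates without it. CreERT2 was driven by a CMV promoter, which is not restricted to a cell type, and the pools hide the spread between single animals. In bulk RNA, fewer cells of a type and less RNA per cell cannot be told apart.

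HCN channels open when the membrane hyperpolarizes and carry an inward cation current that helps a neuron return towards firing threshold. Cyclic AMP binds to them and eases their opening, most strongly in HCN2 and HCN4. NALCN passes a steady sodium leak that holds the resting potential near threshold, and it is known in the brainstem for its part in the excitability of respiratory neurons. TRPM4 is opened by intracellular calcium and lets monovalent cations through, and TRPC channels are opened downstream of receptors coupled to Gq and phospholipase C. Calcium-activated and TRPC currents have both been studied in the neurons that generate the breathing rhythm.

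The members of the HCN and TRPC families are related in sequence, so the stretches that could blur their counts are given first. Each sequence was read from the GENCODE annotation of GRCm38, the build of the deposited loci (mm10), on the strand of the gene and within its coding region, and capitals mark the longest run of bases that the pair has in common. Between *Hcn2* (chr10:79717170-79717219, plus strand, exon 1) and *Hcn3* (chr3:89159785-89159834, minus strand, exon 1) that run had 33 bases:
Hcn2: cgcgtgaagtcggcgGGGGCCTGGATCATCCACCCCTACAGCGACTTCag
Hcn3: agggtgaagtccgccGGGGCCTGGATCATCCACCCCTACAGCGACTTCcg

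Between *Hcn2* (chr10:79728911-79728972, exon 4) and *Hcn4* (chr9:58855543-58855604, plus strand, exon 4) it had 32 bases, in the pore region and running into the codons of the selectivity filter:
Hcn2: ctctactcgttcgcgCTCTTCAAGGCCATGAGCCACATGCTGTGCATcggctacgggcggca
Hcn4: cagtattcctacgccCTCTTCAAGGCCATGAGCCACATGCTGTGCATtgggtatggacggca

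Between *Trpc4* (chr3:54194781-54194834, plus strand, exon 2) and *Trpc5* (chrX:144523690-144523743, minus strand, exon 2), the closest relatives among the TRPC genes described, it had 24 bases:
Trpc4: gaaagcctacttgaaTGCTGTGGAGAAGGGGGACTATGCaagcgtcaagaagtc
Trpc5: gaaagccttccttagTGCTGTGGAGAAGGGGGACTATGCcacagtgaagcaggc

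None of these runs reached 50 bases. When every window of 50 bases of a reference transcript was searched for in all other genes, *Hcn2*, *Hcn4*, *Nalcn*, *Trpm4* and *Trpc4* had 0 windows in common with another gene. *Trpc1* had 11 of 4510 windows in common with other genes and *Trpc5* 13 of 4109. The search took 1 transcript per gene, of 4559 bases for *Trpc1* and 4158 for *Trpc5*. The joined exons of these loci held 8892 and 9226 bases, and bases of a locus outside the transcript were not searched. *Hcn3* was the exception, with 662 of 3953 windows (16.7%) in common with *Pklr*, a neighbour that overlaps it on the opposite strand. *Pklr* itself held 1 to 10 fragments in a library, and whether the counting used the strand is not given in the sources used here.

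The libraries held 12034613 to 13202707 fragments. The *Hoxa5* locus went against the label of some libraries: it held 202, 337 and 77 fragments in those labelled control (replicates 1, 2 and 3) and 279, 57 and 63 in those labelled cKO. Control replicate 3 lay near the low cKO libraries and cKO replicate 1 between the high controls, so results are also given without these 2 libraries. In all that follows, control and cKO stand for the label of a library, and each direction rests on these labels. The 4 Y-linked genes measured summed to 3 fragments in cKO replicate 1 and to between 1069 and 1734 in the other 5 libraries. All 10 markers of brainstem neurons were detected in every library, and 0 of the 9 tested were called at an adjusted p under 0.05. The log2 fold changes of these 9 were all above 0, with a median of 0.13, and 2 of them, *Dbh* (0.46) and *Slc6a2* (0.28), had an unadjusted p under 0.05. By edgeR's quasi-likelihood test the adjusted p was 0.297 for *Dbh*, whose cKO libraries all lay above the control libraries, and 0.685 for *Slc6a2*. The summed level of that list was 302 to 358 CPM in control and 310 to 392 CPM in cKO, and its part in the values of the channel genes was not tested. Cerebellar markers moved with genotype: 5 of 7 granule neuron markers and 6 of 6 Purkinje cell markers had a called fall in cKO. Not all of these genes are restricted to the cerebellum: the authors also detected *Calb1* and *Slc17a7* transcripts in nuclei of the medulla. They treat several genes of both lists as candidate HOXA5 targets in the brainstem. The summed level of the granule list was 386 to 695 CPM in the control libraries and 206 to 223 CPM in the cKO libraries, and that of the Purkinje list 168 to 272 and 91.1 to 106 CPM. No marker of either list was at 0 in any library. Of 6 general neuron markers 1 was called (*Rbfox3*, -0.30 on the log2 scale), and of 5 markers each of astrocytes, oligodendrocytes, microglia, endothelium and choroid plexus 0 were called. CPM are fragments divided by the library size, itself scaled by TMM.

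None of the 8 channel genes was called between the genotypes. By edgeR's quasi-likelihood test the Benjamini-Hochberg adjusted p over 21854 loci lay between 0.463 and 0.994 for them, and 0.531% of all loci tested were called, 0.503% as lower and 0.0275% as higher in cKO. DESeq2 and limma on log2(FPKM + 1) also called 0 of 8. An unadjusted p under 0.05 was reached by 1 gene in edgeR (*Trpc5*), by 1 in DESeq2 (*Trpc5*) and by 2 in limma (*Trpc5* and *Hcn3*). Among all loci tested it was reached by 1516 of 21854 (6.94%) in edgeR, 711 of 21854 in DESeq2 and 1298 of 19282 in limma. The fold changes, as log2 of cKO over control, were above 0 for 6 genes and below 0 for 2, with a median of 0.07 against 0.00 over all loci tested. The 95% intervals of the fold change, each taken for its own gene, reached from 0.806 to 1.28 over the 8 genes. All cKO libraries lay above all control libraries in CPM for 2 genes (*Trpm4* and *Trpc5*), as for 5.61% of all loci tested, and below them for 0 genes, as for 6.54% of all loci.

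**Figure D1:**
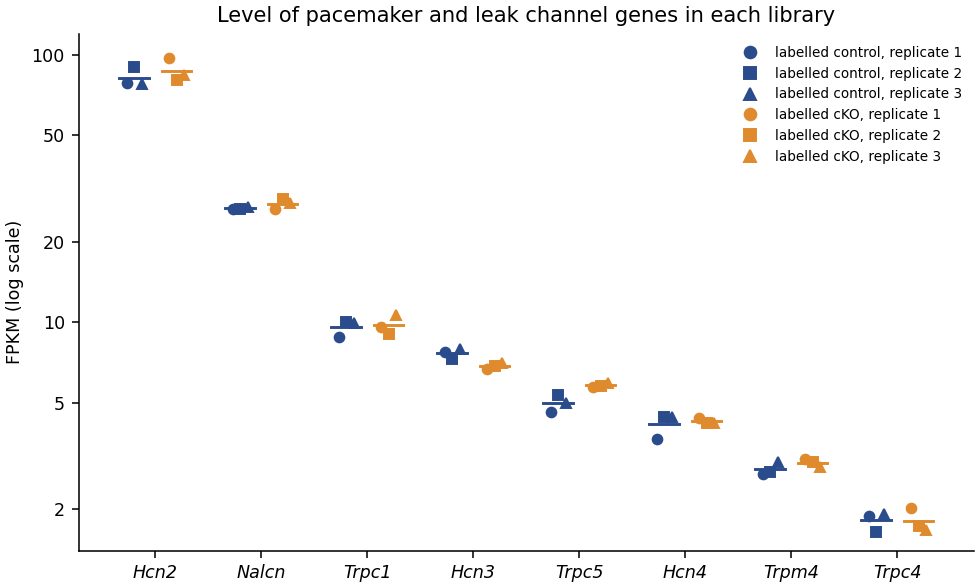
Level of each of the 8 channel genes in each library, as FPKM on a log scale, with control libraries in blue and cKO libraries in orange; the shape of a point gives the replicate and the line the mean of the 3 libraries. The levels fall from *Hcn2* at 77.8 to 96.9 FPKM to *Trpc4* at 1.65 to 2.02 FPKM, and the distance between genes is larger than that between genotypes.

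The levels differed far more between genes than between libraries. Per length, as FPKM averaged over the 6 libraries, the order was *Hcn2* (84.6, above 97.1% of the loci tested), *Nalcn* (27.2, above 88.4%), *Trpc1* (9.68), *Hcn3* (7.26), *Trpc5* (5.40), *Hcn4* (4.21), *Trpm4* (2.90) and *Trpc4* (1.81, above 34.0%). On this scale the ranges of any neighbours in the order, over the 6 libraries, stood apart. The length behind a level matters in the middle of the order. Taken as CPM per kilobase of the joined exons of each locus, *Hcn2* (66.9) and *Nalcn* (24.0) stayed first and second and *Trpm4* (1.66) and *Trpc4* (1.20) last, while *Trpc5* (5.33) stood above *Trpc1* (4.74) and *Hcn4* (3.58) above *Hcn3* (3.24). On that scale the ranges of *Trpc5* and *Trpc1* overlapped, and so did those of *Hcn4* and *Hcn3*.

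*Hcn2*, on chr10:79716634-79736108 on the plus strand, encodes the HCN subunit with the highest level here. It held 2432, 2777 and 2627 fragments in the control libraries and 2851, 2696 and 2713 in the cKO libraries, or 199, 226 and 199 CPM against 238, 207 and 214 CPM. The groups overlapped, since control replicate 2 lay above cKO replicates 2 and 3. The log2 fold change was 0.08 (SE 0.06, 95% interval -0.05 to 0.21, adjusted p = 0.889), which in percent spans -3.28% to 15.3%. Its coefficient of variation within a genotype was 7.58% in control and 7.40% in cKO, where fragment counting alone would give 1.96% and 1.91%. The libraries of a genotype thus spread more widely for *Hcn2* than counting alone would give. Each pool gave a single library, so spread between pools and spread from library preparation cannot be told apart. Without control replicate 3 and cKO replicate 1 the log2 fold change was -0.01.

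*Hcn4*, on chr9:58822761-58863438 on the plus strand, encodes the slowly gating subunit that also dominates in the cardiac pacemaker. It held 250, 309 and 340 fragments in control and 304, 356 and 342 in cKO, or 20.5, 25.2 and 25.7 CPM against 25.4, 27.3 and 27.0 CPM. Control replicate 1 stood below the other 5 libraries, and cKO replicate 1 lay between the other controls. The log2 fold change was 0.16 (SE 0.09, 95% interval -0.03 to 0.35, adjusted p = 0.807). It depended on that control library, being 0.06 without control replicate 1, and was 0.25 (SE 0.10, adjusted p = 0.409) without control replicate 3 and cKO replicate 1. On FPKM the means were 4.17 ± 0.43 in control and 4.26 ± 0.11 in cKO (SD, n = 3), a smaller difference than on CPM.

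*Hcn3*, on chr3:89146536-89160182 on the minus strand, encodes a subunit that responds little to cyclic AMP. Its fragments numbered 218, 204 and 230 in control and 185, 234 and 210 in cKO, which is 17.9, 16.6 and 17.4 CPM against 15.4, 18.0 and 16.6 CPM. The groups overlapped on counts, and the log2 fold change was -0.05 (SE 0.09, 95% interval -0.25 to 0.15, adjusted p = 0.958). On FPKM they did not overlap: the values were 7.73, 7.31 and 7.97 in control and 6.66, 6.84 and 7.04 in cKO. That the 3 cKO libraries lay below the 3 control libraries in FPKM was the case for 6.98% of all loci tested, and limma on log2(FPKM + 1) gave -0.14 (unadjusted p = 0.0446, adjusted p = 0.731). The 2 scales thus differ for *Hcn3*, whose locus joins 5 transcripts and shares bases with *Pklr*, and the part of either in the difference was not tested. Without control replicate 3 and cKO replicate 1 the count-based log2 fold change was 0.00.

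As a share of the summed FPKM of *Hcn2*, *Hcn3* and *Hcn4*, *Hcn2* took 86.3% to 89.8% in the 6 libraries, *Hcn3* 6.17% to 8.84% and *Hcn4* 4.06% to 4.89%. By fragments per kilobase of joined exons *Hcn2* took 89.9% to 91.9%. *Hcn2* thus came first on both scales and in every library, while *Hcn3* and *Hcn4* came close to each other on the second, with 3.63% to 4.96% and 4.24% to 5.39%. The share of *Hcn2* was 87.4% ± 1.10 in control and 88.6% ± 1.01 in cKO on FPKM (SD, n = 3), and the libraries of the genotypes overlapped.

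**Figure D2:**
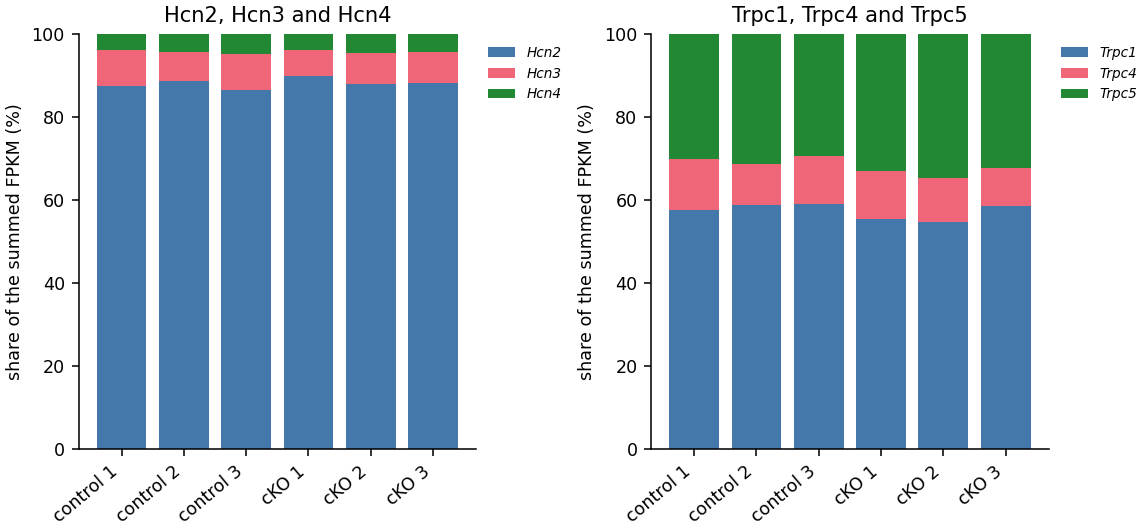
Share of each gene in the summed FPKM of *Hcn2*, *Hcn3* and *Hcn4* (left) and of *Trpc1*, *Trpc4* and *Trpc5* (right) in each library, in percent. *Hcn2* makes up 86.3% to 89.8% of the left sum in the 6 libraries, and *Trpc1* 54.6% to 59.0% of the right one.

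Among HCN partners, *Pex5l* encodes TRIP8b, which steers HCN channels to the membrane, *Kcne2* an accessory subunit and *Kctd3* a binding partner of HCN3. Of the 6 genes of the HCN list, 0 were called in either direction, and the median log2 fold change was 0.01. *Kcne2* had the lowest value, -0.40 with an interval of -0.98 to 0.17, from 15 to 38 fragments in a library.

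*Nalcn*, on chr14:123276434-123627556 on the minus strand, encodes the sodium leak channel and had the smallest standard error of the 8 genes. Its fragments numbered 2220, 2249 and 2462 in control and 2215, 2591 and 2438 in cKO, or 182, 183 and 186 CPM against 185, 199 and 192 CPM. cKO replicate 1 lay within the control range and the other 2 cKO libraries above it. The coefficient of variation was 1.16% in control and 3.64% in cKO, where counting alone would give 2.08% and 2.04%. The log2 fold change was 0.06 (SE 0.05, 95% interval -0.03 to 0.16, adjusted p = 0.872), which in percent spans -2.23% to 11.8%. Without control replicate 3 and cKO replicate 1 it was 0.10 (SE 0.05, adjusted p = 0.551).

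The NALCN channel works as a complex, in which UNC79 and UNC80 are large auxiliary proteins and FAM155A a further subunit. Of the 5 genes of the complex that were found, 0 were called. *Unc79* had a log2 fold change of -0.03, *Unc80* of -0.01, *Fam155a* of -0.01 and *Tmem28*, the X-linked relative of *Fam155a* also named *Fam155b*, of 0.06. The intervals of *Unc79*, *Unc80* and *Fam155a* lay within -0.14 and 0.10, close to the width of that of *Nalcn*. Per length, *Unc80* stood at 40.4 ± 0.84 FPKM in control and 40.3 ± 1.01 in cKO, *Fam155a* at 29.0 ± 0.85 and 28.8 ± 0.44, and *Nalcn* at 26.7 ± 0.28 and 27.8 ± 1.24 (SD, n = 3).

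*Trpm4*, on chr7:45302497-45333802 on the minus strand, gave few fragments. The control libraries held 130, 127 and 143 and the cKO libraries 143, 147 and 146, or 10.7, 10.3 and 10.8 CPM against 11.9, 11.3 and 11.5 CPM. Every cKO library thus lay above every control library in CPM, but not in FPKM, where cKO replicate 3 (2.88) lay below control replicate 3 (2.99). The log2 fold change was 0.13 (SE 0.10, 95% interval -0.09 to 0.35, adjusted p = 0.899). Counting alone would give a coefficient of variation of 8.66% in control, above the 2.22% observed, so that the SD of the 3 control libraries is smaller than counting error. SUR1 and SUR2, encoded by *Abcc8* and *Abcc9*, are sulphonylurea receptors, of which SUR1 can join TRPM4. Their log2 fold changes were -0.03 and 0.09, and 0 of these 2 genes were called.

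In the TRPM family 6 of 8 genes passed the filter on low counts and 0 were called, with a median log2 fold change of 0.01. *Trpm1* and *Trpm5* did not pass it, with 0 to 3 and 2 to 6 fragments in a library. *Trpm6* (-0.28, interval -0.84 to 0.29) and *Trpm8* (0.17, interval -0.48 to 0.81) were too low for a narrow interval, while *Trpm7* (0.03, interval -0.08 to 0.14), a channel fused to a kinase, was measured closely.

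*Trpc5*, on chrX:144377274-144688851 on the minus strand, encodes a channel opened by Gq-coupled receptors and calcium, and had the highest log2 fold change and the smallest p of the 8 genes. It held 501, 625 and 596 fragments in control and 645, 684 and 653 in cKO, or 41.0, 50.9 and 45.0 CPM against 53.8, 52.5 and 51.6 CPM. Every cKO library lay above every control library in CPM, although control replicate 2 came close to the lowest cKO library. They also lay apart in FPKM, as for 5.12% of all loci tested, with 4.62, 5.35 and 4.99 in control and 5.73, 5.78 and 5.93 in cKO. The mean was 45.7 ± 4.96 CPM in control and 52.6 ± 1.15 CPM in cKO (SD, n = 3). The log2 fold change of 0.20 (SE 0.07, 95% interval 0.05 to 0.36, unadjusted p = 0.0115) did not pass the correction over all loci (adjusted p = 0.463). It ran from 0.13 without control replicate 1 to 0.29 without control replicate 2, with adjusted p of 1.00 and 0.147, and was 0.18 (adjusted p = 0.512) without control replicate 3 and cKO replicate 1. cKO replicate 1, the library almost without Y-linked fragments, had the highest CPM of this X-linked gene (53.8) but the lowest FPKM of the 3 cKO libraries (5.73). The part of the Y-linked difference in the level of *Trpc5* was not tested. A gene on the same strand within the *Trpc5* locus, *Mageb16-ps1*, held 25 to 34 fragments in a library.

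*Trpc1*, on chr9:95702669-95750384 on the minus strand, encodes a subunit that mostly joins other TRPC proteins. With 493, 520 and 563 fragments in control and 513, 511 and 575 in cKO, it stood at 40.4, 42.4 and 42.5 CPM against 42.8, 39.2 and 45.4 CPM. The cKO libraries spanned the control libraries on both sides. The log2 fold change was 0.02 (SE 0.07, 95% interval -0.12 to 0.17, adjusted p = 0.977).

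*Trpc4*, on chr3:54155923-54318491 on the plus strand, is the relative of *Trpc5* and the lowest of the 8 genes. It held 76, 70 and 87 fragments in control and 82, 77 and 72 in cKO, or 6.23, 5.70 and 6.57 CPM against 6.84, 5.91 and 5.68 CPM. The groups lay over each other, and the log2 fold change was -0.01 (SE 0.14, 95% interval -0.31 to 0.29, adjusted p = 0.994). Counting alone would give a coefficient of variation of 11.3% in control, and the 95% interval in percent spans -19.4% to 22.5%. That interval gives the changes of *Trpc4* that the data leave and is not a limit of detection. Larger changes can also go uncalled after correction over all loci.

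**Figure D3:**
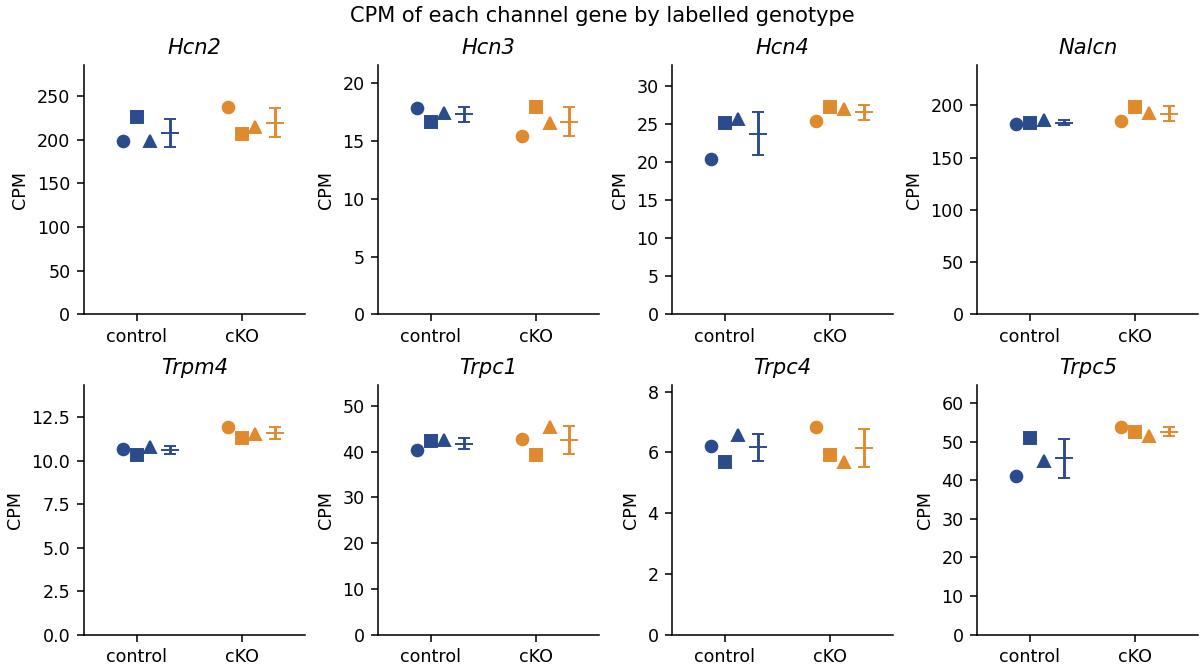
CPM of each of the 8 channel genes in the 3 control and 3 cKO libraries, each panel from 0; points are libraries (circle, square and triangle for replicates 1, 2 and 3) and the cross beside them the mean with its SD. The groups lie apart for *Trpm4* and *Trpc5*, and overlap for the other 6 genes.

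Of the other TRPC genes of the list, *Trpc2* had a log2 fold change of -0.15 (interval -0.34 to 0.04), *Trpc7* of -0.19 (-0.51 to 0.14) and *Trpc6*, with 16 to 29 fragments in a library, of 0.27 (-0.28 to 0.82). Every cKO library lay below every control library in CPM of *Trpc2* (16.3 to 19.0 against 19.5 to 20.6), as for 6.54% of all loci tested. In FPKM they overlapped, with cKO replicate 3 (4.72) above control replicate 2 (4.53). The TRPC list also holds *Trpc4ap* (0.04), which is not a channel gene. Of the 7 genes of that list 0 were called, with a median of 0.02. As a share of the summed FPKM of *Trpc1*, *Trpc4* and *Trpc5*, *Trpc1* took 54.6% to 59.0% over the 6 libraries, *Trpc5* 29.6% to 34.9% and *Trpc4* 9.17% to 12.3%. By fragments per kilobase of joined exons *Trpc5* had a mean share above that of *Trpc1*, with 45.6% ± 2.55 in control and 48.9% ± 1.62 in cKO against 43.4% ± 1.39 and 40.9% ± 2.12 (SD, n = 3). The share of *Trpc5* was higher in each cKO library than in each control library on FPKM, but the genotypes overlapped on the second scale.

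The signals that open TRPC channels were likewise without calls. Of 6 genes for Gq proteins and phospholipase C beta, 0 were called and the median log2 fold change was -0.02. *Plcb3* (-0.17), *Plcb4* (-0.06), *Plcb2* (-0.23) and *Gna11* (0.04) had the smallest p among them. Of the 5 genes of store-operated calcium entry, the *Stim* sensors and *Orai* pores, 0 were called and the median was -0.04, with *Orai3* at -0.17 and *Orai2* at -0.07. In all, 29 of 31 related genes that are not among the 8 were tested. None of them was called by edgeR or DESeq2, nor of the 25 tested by limma, and 0 reached an unadjusted p under 0.05 in any of these tools. Their median log2 fold change was -0.01.

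**Figure D4:**
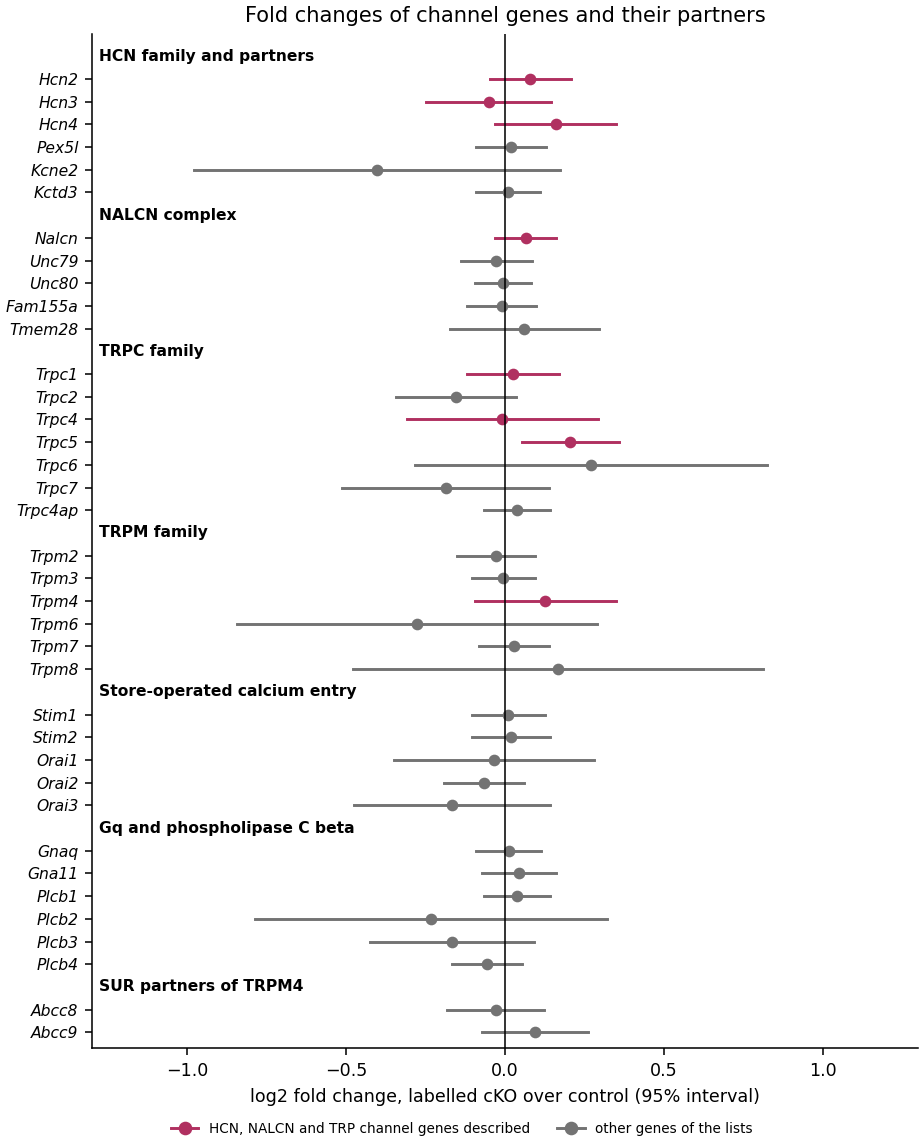
Log2 fold change of cKO over control with its 95% interval for the 8 channel genes (red) and the related genes tested (grey), by list. The intervals of all genes but *Trpc5* (0.05 to 0.36) cross 0, and the wide ones belong to genes with few fragments such as *Kcne2* and *Trpm8*.

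The cerebellar markers moved with genotype in the same libraries as the channel genes. A fit took the mean level of the granule neuron markers as a covariate, but it cannot separate that level from genotype. In that fit the log2 fold change of *Trpc5* was -0.03 (SE 0.23), of *Hcn4* -0.34 (SE 0.25), of *Trpc1* -0.17 (SE 0.21) and of *Hcn3* 0.08 (SE 0.29), each with the sign turned, and 0 of the 8 genes were called. The standard errors were larger than without the covariate, and 0 loci were called in all. The mean log2 CPM of the granule markers was 5.36 to 6.14 in control and 4.36 to 4.52 in cKO, so that it parts the libraries by genotype. The cerebellar marker level and the genotype can therefore not be told apart in these libraries.

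The profile over the 6 libraries was compared with that of 14870 loci with a single gene name, by the root mean square difference of log2 CPM centred on each gene's own mean. The nearest profile to *Trpc5* was that of *Pcsk5*, a proprotein convertase (0.0304), and to *Hcn4* that of *Fam189a1* (0.0380). The nearest to *Hcn2* was *Endod1* (0.0129), to *Nalcn* *Ap1ar* (0.0094), to *Trpm4* *Mut* (0.0078), to *Trpc1* *Nt5m* (0.0121), to *Hcn3* *Sh2d5* (0.0132) and to *Trpc4* *Serp1* (0.0222). None of these 8 loci was called between the genotypes, but each was chosen for its likeness to a gene without a call, so this adds no evidence. Among the channel genes themselves the closest pair was *Nalcn* and *Trpm4* (0.0640). By the same measure *Nalcn* lay 0.0450 and *Trpm4* 0.0695 from a flat profile, so *Nalcn* was closer to a flat profile than to *Trpm4*. *Hcn4* was the nearest of them to *Trpc5* (0.0854), and both had control replicate 1 as their lowest library. With only 6 libraries and small spreads, some locus among so many lies close to any profile, and these distances are a description.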

How the data were processed

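Stranded total RNA libraries depleted of ribosomal RNA were sequenced from pools of 3 brainstems, 3 pools per genotype. According to the submitters' notes, the authors used CASAVA 1.6, TopHat2 2.0.9, Cufflinks 2.2.0 and Cuffdiff on mm10. The deposited table gives fragment counts per locus and library as whole counts, and FPKM, which Cuffdiff scales across libraries. Gene names came from the deposited assembly. Its replicate numbers served as names only.

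Counts were filtered with filterByExpr, scaled by TMM and compared with edgeR 4.0.16 (quasi-likelihood, 21854 loci, Benjamini-Hochberg adjusted p under 0.05, R 4.3.3). SE is the log2 fold change over the root of F. DESeq2 1.42.0 and limma 3.58.1 (log2 of FPKM + 1 or + 0.1, FPKM of at least 1 in 3 libraries), other scalings and filters, a replicate block, a marker covariate and left-out libraries were alternatives. The channel genes and related lists were chosen with earlier results of these data known. Named were the 8 channel genes, up to 4 genes per list by smallest p (channel genes included), up to 2 per marker list, and the nearest profile of each. *Pex5l*, *Kctd3*, *Unc80*, *Trpm1*, *Trpm5*, *Trpc4ap*, *Calb1* and *Slc17a7* were added after their values were seen. On simulated counts for 21854 loci edgeR found 63.6%, 82.5% and 100% of genes changed 1.5-, 2- and 4-fold, with 10 false calls among 168. Each library is a separate pool, so p-values measure the spread between pools together with that between libraries, not between animals. Some related genes are not reported here.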

Additional observations from a re-analysis of the deposited data

How the results depend on the processing

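Of the 8 channel genes 0 were called in the main fit and in 16 alternatives, and the same held for the related genes. The number of loci called, 116 in the main fit, was 76 with at least 50 fragments in 3 libraries, 221 without a filter, 0 with limma on log2(FPKM + 1), 1 with limma on log2(FPKM + 0.1) and 0 with the granule neuron marker covariate. It ran from 44 (without control replicate 1) to 126 (without control replicate 3) when single libraries were left out, and was 65 without cKO replicate 3. Without control replicate 3 and cKO replicate 1 together it was 161. The cause of these moves was not tested, apart from the number of loci tested, which the filters change. Log2 fold changes turned sign in 11 cases. With the marker covariate they were 0.081 for *Hcn3*, -0.34 for *Hcn4*, -0.17 for *Trpc1* and -0.025 for *Trpc5*. That covariate parts the libraries by genotype, so these turns cannot be assigned to marker level or to genotype. With upper-quartile scaling *Trpc4* was at 0.0036. Without control replicate 3 and cKO replicate 1 *Hcn2* was at -0.015 and *Hcn3* at 0.0034. In that same fit *Trpm4* (0.12), *Trpc1* (0.032) and *Trpc4* (-0.040) kept the sign of the main fit. With single libraries left out, *Hcn2* ran from 0.018 to 0.14, *Hcn3* from -0.11 to -0.0013, *Hcn4* from 0.063 to 0.22, *Nalcn* from 0.043 to 0.091, *Trpm4* from 0.10 to 0.15, *Trpc1* from -0.028 to 0.083, *Trpc4* from -0.091 to 0.043 and *Trpc5* from 0.13 to 0.29. *Nalcn* and *Trpm4* kept their sign in all 16. In an order by CPM per kilobase of joined exons, added after the data were seen, *Trpc5* ranked 3, *Trpc1* 4, *Hcn4* 5 and *Hcn3* 6. The replicate block gave 130 calls and none among the channel genes; same-numbered libraries did not deviate together (correlations of 0.03, -0.08 and 0.05), so the numbers were not taken to pair pools. Depth limits *Trpc4*, *Trpm4*, *Kcne2*, *Trpm6* and *Trpm8*, whose counts are low.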
